A study of Mus musculus with 4 samples.

Results

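The respiratory chain of the inner mitochondrial membrane was examined in brain ECs of wild-type and *Foxq1* cKO embryos through 118 genes, out of 12693 gene symbols with values. The members were taken by their symbols. They were the nuclear genes for subunits of complexes I to V, the *Ndufaf* assembly factors of complex I, and the genes of the mitochondrial genome. Complex I had 38 members, complex II 4, complex III 9, complex IV 15 and complex V 16, so that 82 members were nuclear-encoded subunits. A further 8 were *Ndufaf* genes, and the mitochondrial genome gave 11 protein-coding genes, 2 rRNAs and 8 tRNAs. The remaining 7 were *Ndufa4l2* and genes whose symbols mark them as processed copies. *Ndufa4* was placed with complex IV, where its protein is now assigned. *Cox6c2* was placed there, and *Ndufb4c* in complex I, by symbol although the GENCODE M21 annotation lists both as processed pseudogenes. *Ndufb4c* shared 100% of its 50-base words with *Ndufb4* and had too few counts to be tested. *Ndufb1*, in complex I, is listed there as a long noncoding RNA of a bidirectional promoter.

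RNA was sequenced from 2 wild-type and 2 *Foxq1* cKO samples at embryonic day 18, all on the C57BL/6 strain. The *Foxq1* cKO genotype is given as FOXQ1fl/fl;Tie2-Cre, in which floxed *Foxq1* is removed by a Cre driven from the Tie2 promoter, which is active in endothelial cells and also in blood-forming lineages. Control embryos are labelled WT, and the study's methods describe controls as littermates without the Cre transgene, so whether they carried floxed alleles is not settled by these sources. The labels name the brain as the tissue and 2 µg of total RNA as the input, whereas the methods describe cells sorted by CD31 from the cortex. Smart-seq2, a protocol for small amounts of RNA, is named in the results of the study but not in its methods. Neither source says whether a sample was 1 embryo or a pool, so the p-values measure only the spread between these samples. Reads on listed genes numbered 21466436 in wild-type 1, 17901203 in wild-type 2, 15827166 in *Foxq1* cKO 1 and 16963866 in *Foxq1* cKO 2. The deposited values are normalized counts, that is, reads on a gene divided by 1 size factor per sample.

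Markers of the sorted cells were present in every sample. All 16 endothelial markers were listed, and together they summed to 508347 and 469697 normalized counts in wild-type against 412592 and 465314 in *Foxq1* cKO samples, with *Cldn5* the most abundant. As shares of all normalized counts, whose totals were lower in both *Foxq1* cKO samples, they overlapped, at 2.81% and 2.63% against 2.39% and 2.70%. Mural cell markers were present as well. Of 13 in the list, 10 had values, with sums of 157871 and 155228 in wild-type against 162731 and 148261 in *Foxq1* cKO samples, with *Rgs5* the most abundant and 0 genes apart in either direction. *Acta2*, *Tagln* and *Myh11*, which define smooth muscle, were not analysed here. All 14 markers of microglia and macrophages had values, with sums of 10683 and 13375 against 8330 and 9362, so both *Foxq1* cKO sums were lower, as were the shares, and *Csf1r* was the most abundant. By gene, 2 of these 14 lay upwards without overlap and 3 downwards, 35.7% in either direction against 36.0% of all genes tested, 7 had a log2 fold change above 0 and 7 below, and the median was -0.03. Of 15 neuron and progenitor markers 12 had values, *Fabp7* the most abundant, with sums of 13716 and 13957 against 11658 and 13373. Their shares overlapped, at 0.0758% and 0.0782% against 0.0677% and 0.0775%, with 0 genes upwards, 3 downwards (25.0% in either direction) and a median of -0.35. Of 5 oligodendrocyte lineage markers 3 had values, with 0 upwards, 2 downwards and a median of -0.61. Their sums, mostly *Olig1*, were 3344 and 2446 against 1605 and 3528 and overlapped, and *Olig2* and *Sox10* were not listed. Of 13 erythroid markers 7 had values, *Hba-a1* the most abundant, with sums of 20859 and 15770 against 16022 and 20516, 1 gene upwards and 0 downwards. In such bulk samples, fewer cells of a type and less RNA per cell cannot be told apart.

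Complexes I, III and IV pump protons as electrons pass along the chain, complex II feeds in electrons from succinate without pumping, and complex V uses the gradient to make ATP. Complex II is built from nuclear genes alone. The other complexes also contain subunits made inside the mitochondrion from its own genome, whose genes are transcribed as long precursors and cut apart. Endothelial cells are known for making much of their ATP by glycolysis, and brain ECs are known for a high content of mitochondria compared with endothelium elsewhere.

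*Foxq1* itself was examined first. It had 353 and 297 normalized counts in wild-type against 5.44 and 32.6 in *Foxq1* cKO samples. Both *Foxq1* cKO values lay far below both wild-type values, as the labels state. The log2 fold change, computed on log2 of the value plus 1, was -4.47 (SE 1.04), and limma gave it an unadjusted p of 0.00507 and, adjusted, 0.857, with Benjamini-Hochberg adjustment over all genes. On recovered reads DESeq2 gave an adjusted p of 0.00854 for *Foxq1*, and over all alternatives the adjusted p lay between 0.00854 and 0.9996.

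No member passed the test in either direction. Of the 118 members, 110 reached a mean of 10 normalized counts and were tested among 12472 genes. None had an unadjusted p under 0.05 in limma, against 5.22% of all genes tested, 2.17% higher and 3.05% lower. None had an adjusted p under 0.05, as was the case for 0.00% of all genes, and the smallest values among members were 0.0692 unadjusted and 0.857 adjusted. DESeq2 on the recovered reads gave 2 members at an unadjusted p under 0.05, *Cox5b* and *mt-Atp6*, and edgeR gave 0, out of 118 members and beside 824 and 632 of 12693 genes. At an adjusted p under 0.05 DESeq2 gave 0 members and 59 genes, and edgeR 0 of each. Leaving out wild-type 1 gave *Ndufs1* alone at an unadjusted p under 0.05 in limma, leaving out wild-type 2 gave *Ndufaf8* alone, and leaving out *Foxq1* cKO 1 gave *mt-Atp6*, *mt-Co1* and *mt-Rnr2*, with 0 members at an adjusted p under 0.05 in each. Over all genes the count at an unadjusted p under 0.05 was 651, and it was 1569 without wild-type 2 and 276 without *Foxq1* cKO 1. The median SE of a member's log2 fold change was 0.331 with 2 samples in each group, beside 0.496 over all genes tested.

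Wild-type 1 stood apart from the other libraries across genes. On log2 values its correlation was 0.859 with wild-type 2, 0.854 with *Foxq1* cKO 1 and 0.869 with *Foxq1* cKO 2, whereas wild-type 2 had 0.887 and 0.911 with the *Foxq1* cKO samples, which had 0.904 with each other. Its part in the counts that follow was not tested beyond leaving it out. In 48 of the 110 members tested both *Foxq1* cKO values lay above both wild-type values, and in 7 both lay below. Over all genes tested the same arrangement was seen upwards in 2239 genes (18%) and downwards in 2249 (18%), and in either direction in 36.0%. Among members the shares were 43.6% upwards, 6.36% downwards, with 55 of 110 in either direction. The nuclear-encoded subunits carried most of the upward cases, with 42 of 80, whereas the protein-coding mitochondrial genes had 0 of 11 upwards and 3 downwards. A log2 fold change above 0 was found in 63 of 80 nuclear-encoded subunits tested, 78.8% against 50.7% of all genes tested. The median log2 fold change of these 80 was 0.23, beside 0.01 for all genes tested, and it lay between 0.16 and 0.30 when 1 sample was left out. With a sample less, groups separate more easily, in members and in all genes alike. Without wild-type 2, 75.5% of members and 74.9% of all genes tested lay apart in either direction, and without *Foxq1* cKO 1 83.6% and 62.3%. Without wild-type 1 the shares were 73.6% and 69.1%, and without *Foxq1* cKO 2 67.3% and 65.6%. Upwards, there were between 55 and 73 of the 110 members in these settings, and between 31.0% and 37.2% of all genes. Downwards, there were between 15 and 22 members, and between 31.3% and 37.7% of all genes. Quantile normalization gave 2 members downwards and removal of a trend with gene length gave 11, beside 7 without these steps. Shares of all genes lying downwards in those settings are not given here, so these counts are not read as a result about the members.

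**Figure D1:**
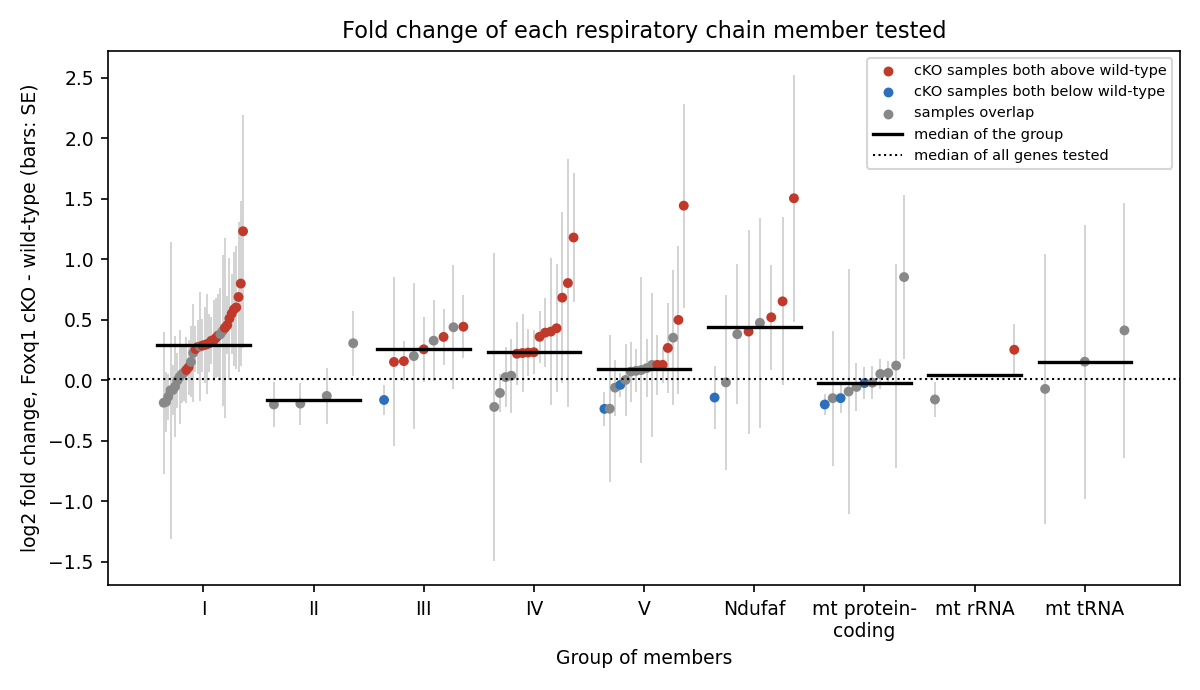
Log2 fold change (*Foxq1* cKO minus wild-type, on log2 of normalized counts plus 1) of each member tested in the complexes, *Ndufaf* and the mitochondrial genome, by group, with bars for the standard error, solid lines for the group medians and a dotted line for the median of all genes tested. The medians of complexes I, III and IV lie at 0.29, 0.26 and 0.23 and that of complex II at -0.16, and single bars often reach across 0.

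Cytosolic ribosomal proteins showed the same lean, so the pattern cannot be called particular to the respiratory chain. Beside 18% of all genes tested each way, 42 of 84 cytosolic ribosomal protein genes lay upwards and 2 downwards without overlap, and their median log2 fold change was 0.20. The list also holds *Rps19bp1*, a binding protein that counts among the upward genes, and genes marked as copies by symbol, such as *Rpl37rt* and *Rps27rt*. Mitochondrial ribosomal proteins, which translate the mRNAs of the mitochondrial genome, stood closer to all genes, with 24 of 80 upwards, 10 downwards (42.5% in either direction against 36.0%) and a median of 0.08. The 80 include *Mrpl23-ps1*, *Mrpl27-ps* and *Mrpl48-ps*, copies by symbol, of which *Mrpl27-ps* and *Mrpl48-ps* lay downwards. The difference between these lists was not tested. Endothelial markers leaned the other way, with 1 of 16 upwards, 9 downwards and a median of -0.16, as did the medians of the neuron and oligodendrocyte lists. The part of cell content in the lean of the subunits was not tested.

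Complex I, the entry point for electrons from NADH, had 21 of 36 tested members upwards (58.3%) and 0 downwards, beside 18% of all genes each way. Its summed normalized counts were 35851 and 37137 in wild-type against 40589 and 42026 in *Foxq1* cKO samples. As a share of all normalized counts these were 0.203% ± 0.00699 (SD, n = 2) and 0.240% ± 0.00563 (SD, n = 2). The groups did not overlap, and the exact two-sided permutation p was 0.333, the smallest that 2 samples against 2 can give. The peripheral arm, which reaches into the matrix and holds the NADH-binding site, and the membrane arm gave similar counts, with 9 of 16 and 11 of 19 members upwards and medians of 0.30 and 0.29. The 7 nuclear-encoded core subunits, most of which carry redox centres, had a median of 0.26. With a single sample left out the complex I median lay between 0.19 and 0.37.

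Individual complex I subunits differed in how far their samples lay apart. *Ndufs1*, the largest core subunit, had 1993 and 1500 normalized counts in wild-type against 2489 and 2263 in *Foxq1* cKO samples. Both *Foxq1* cKO values were the higher ones, with a log2 fold change of 0.46 (SE 0.239, unadjusted p = 0.104 in limma). *Ndufv1*, which binds NADH, had 3033 and 3278 normalized counts against 3524 and 4449. *Ndufab1*, the acyl carrier protein that is also a subunit of complex I, had 539 and 680 normalized counts against 854 and 926. In each of these genes both *Foxq1* cKO values were the higher ones. These 3 genes, *Atp5b* and *Ndufs5* were chosen after their values were seen.

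By log2 fold change the extremes of the peripheral arm were *Ndufa2* and *Ndufa9*. *Ndufa2*, a small accessory subunit, had 238 and 213 normalized counts in wild-type against 302 and 391 in *Foxq1* cKO samples, with a log2 fold change of 0.60 (SE 0.509). *Ndufa9*, which sits where the arms meet, had 2985 and 3113 against 2999 and 2573, and its samples overlapped. In the membrane arm *Ndufa1* was at the upper end with 16.01 and 13.0 normalized counts against 30.5 and 40.7. The *Foxq1* cKO values were higher but rested on only 19, 13, 28 and 40 reads in the 4 samples, and the log2 fold change of 1.23 had an SE of 0.962. *Ndufb4* was at the lower end, with 239 and 186 against 165 and 209, and its samples overlapped.

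Complex II, succinate dehydrogenase, had 4 genes, all tested, and 0 of them separated the groups, where 36.0% of all genes did. With a sample less, 3 separated them without wild-type 1, 1 without wild-type 2 and 2 without either *Foxq1* cKO sample. Of all genes tested, 69.1% did without wild-type 1, 74.9% without wild-type 2, 62.3% without *Foxq1* cKO 1 and 65.6% without *Foxq1* cKO 2. The median log2 fold change of the complex II genes was -0.16 and lay between -0.16 and -0.04 with 1 sample left out. With so few genes, the difference from the other complexes was not tested. *Sdha*, the catalytic flavoprotein, had 8134 and 9584 normalized counts in wild-type against 6914 and 8648 in *Foxq1* cKO samples. The highest value and the lowest came from different groups, but the middle values overlapped. *Sdhb*, the iron-sulphur subunit, had 1561 and 1260 against 1518 and 1986. The membrane anchor *Sdhc* had 2425 and 2126 against 2343 and 1843. *Sdhd*, the other anchor, had 4500 and 5038 against 3732 and 4611. Log2 fold changes were -0.19 for *Sdha* (SE 0.173), 0.31 for *Sdhb* (SE 0.267), -0.13 for *Sdhc* (SE 0.229) and -0.20 for *Sdhd* (SE 0.185). With 1 sample left out they lay between -0.35 and -0.03 for *Sdha*, 0.11 and 0.50 for *Sdhb*, -0.30 and 0.04 for *Sdhc*, and -0.35 and -0.05 for *Sdhd*.

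Complex III, which passes electrons from ubiquinol to cytochrome c, had 5 of 9 members upwards and 1 downwards (18% of all genes each way), and a median log2 fold change of 0.26, between 0.15 and 0.46 with 1 sample left out. *Uqcrb*, a small subunit, had 1175 and 1011 normalized counts in wild-type against 1391 and 1582 in *Foxq1* cKO samples (log2 fold change 0.44, SE 0.259). *Uqcrc1*, a core protein with the highest level per kb in the complex, went the other way, with 13820 and 12318 against 11900 and 11436. Its *Foxq1* cKO values were both the lower ones, and the log2 fold change was -0.16 (SE 0.127), between -0.24 and -0.08 with 1 sample left out. Summed normalized counts of complex III overlapped, with 22414 and 20907 against 21818 and 22292. Its share in all normalized counts did not, and was 0.121% ± 0.00478 (SD, n = 2) in wild-type against 0.128% ± 0.00180 (SD, n = 2) in *Foxq1* cKO samples.

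Complex IV, cytochrome c oxidase, had 11 of 15 members upwards (73.3%) and 0 downwards, against 18% each way over all genes. The 11 include *Cox6c2*, annotated as a processed pseudogene, with only 9, 11, 14 and 18 reads in the 4 samples. It shared 52.7% of its 50-base words with *Cox6c*, which also lay upwards. *Cox5b*, a zinc-binding subunit on the matrix side, stood at the top. It had 182 and 179 normalized counts in wild-type samples, which were nearly equal, against 519 and 326 in *Foxq1* cKO samples. The *Foxq1* cKO mean reached 234% of that in wild-type. The log2 fold change was 1.18 (SE 0.536, 95% interval -0.13 to 2.49) and the unadjusted p was 0.0692 in limma. The unadjusted p was 0.0342 in limma with eBayes without a trend and 0.0496 in DESeq2, and the adjusted p lay between 0.471 and 0.9996 over the alternatives. Its annotated transcripts shared 11.9% of their 50-base words with other genes, and the copy *Cox5b-ps* had 27.0, 36.9, 33.7 and 48.8 normalized counts in the 4 samples. *Cox6b2* was at the lower end, with 11.0 and 42.9 normalized counts against 41.4 and 8.14, so its samples overlapped widely.

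Isoforms of complex IV subunits differ between tissues. Per kb of exon, *Cox4i2*, the isoform known from lung and from hypoxia, reached 0.464 and 0.525 of the level of the ubiquitous *Cox4i1* in wild-type against 0.465 and 0.402 in *Foxq1* cKO samples. *Cox4i1* had 3428 and 2818 normalized counts against 3456 and 3847, and *Cox4i2* had 808 and 752 against 816 and 785, a log2 difference of 0.04 that turned sign when a trend with gene length was removed and when 1 sample was left out. Only the first of the pair separated the groups, and only narrowly. *Cox8a*, the common isoform of a small membrane subunit, had 1727 and 1578 normalized counts against 2054 and 2189 (log2 fold change 0.36, SE 0.216). *Cox6a1* had 3658 and 3124 against 3858 and 4093, *Cox6b1* 157 and 155 against 174 and 244, and *Cox7a2* 1057 and 1010 against 1168 and 1242. In these 3 genes the *Foxq1* cKO values were both the higher ones. *Cox7a2l*, which helps join complex III with complex IV, had 5757 and 5356 against 5367 and 4977, with overlap and a difference whose sign turned under quantile normalization.

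*Ndufa4* and its relative *Ndufa4l2* also stood far apart in level. *Ndufa4l2*, which is induced by hypoxia and is known in the brain as a gene of pericytes, had 4834 and 4188 normalized counts in wild-type against 4215 and 3618 in *Foxq1* cKO samples. *Ndufa4* had 745 and 629 against 762 and 842. Per kb of exon, *Ndufa4l2* was 8.18 and 8.40 times *Ndufa4* in wild-type against 6.98 and 5.42 times in *Foxq1* cKO samples. The samples of *Ndufa4l2* overlapped, and its log2 fold change was -0.20 (SE 0.181), between -0.31 and -0.09 with 1 sample left out. Mural cell markers were present in every sample, with sums that overlapped between the groups, and their part in the level of *Ndufa4l2* and *Cox4i2* was not tested.

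Complex V, ATP synthase, had 5 of 16 members upwards and 2 downwards, 43.8% in either direction and so nearer to the 36.0% of all genes, and a median log2 fold change of 0.09, between 0.02 and 0.20 with 1 sample left out. The 2 downward genes were *Atp5a1* and *Atp5b*, which form the catalytic head. *Atp5a1*, the alpha subunit of the catalytic head, had 12569 and 10866 normalized counts in wild-type against 10303 and 9573 in *Foxq1* cKO samples, so both *Foxq1* cKO values were lower (log2 fold change -0.23, SE 0.139, and between -0.34 and -0.13 with 1 sample left out). *Atp5b*, the catalytic beta subunit, had 30494 and 29493 against 29115 and 29359. *Atp5k*, the small subunit e that holds dimers together in the cristae, had 27.8 and 30.9 against 81.6 and 81.4. Replicates of *Atp5k* lay close together and the groups far apart, but the gene was covered by only 33, 31, 75 and 80 reads. Its log2 fold change was 1.44 with an SE of 0.844 and an unadjusted p of 0.137 in limma, and 0.00734 with eBayes without a trend.

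The c-ring of ATP synthase is encoded by several genes for the same mature protein. *Atp5g1* had 1627 and 1410 normalized counts against 1518 and 1741, *Atp5g2* 1950 and 1883 against 1642 and 2060, and *Atp5g3* 1248 and 1201 against 1265 and 1417. Log2 fold changes of these genes lay between -0.06 and 0.13, and the groups overlapped in *Atp5g1* and *Atp5g2*, whose signs turned when 1 sample was left out. For *Atp5g2*, 36.7% of the 50-base words of its transcripts also occurred in genes elsewhere, so its reads could have been split with a copy. The copy *Gm10175* had 50.6, 28.9, 32.7 and 47.8 normalized counts in the 4 samples, and its part was not tested.

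Among the *Ndufaf* assembly factors, 4 of 8 lay upwards and 1 downwards, 62.5% in either direction against 36.0% of all genes, with a median log2 fold change of 0.44. Their median depended on single samples, and was 0.17 without wild-type 1 and 0.61 without wild-type 2. *Ndufaf8* was at the upper end, with 21.1 and 116 normalized counts in wild-type against 131 and 157 in *Foxq1* cKO samples. Wild-type 1 stood apart from the other samples, and the log2 fold change was 1.51 (SE 1.02), 0.30 without that sample and 2.71 without wild-type 2. *Ndufaf7*, a methyltransferase that acts on a core subunit, was at the lower end with 1234 and 1203 against 1141 and 1070. A list of assembly factors of complexes II to V, cytochrome c and further assembly factors of complex I gave 7 of 41 tested genes upwards (17.1%), 4 downwards (9.76%) and a median of 0.09, beside 18% of all genes each way. *Cox11*, which delivers copper to complex IV, had 5.90 and 13.0 normalized counts against 40.3 and 33.6, and *Cox14* had 383 and 226 against 578 and 517. The electron carrier gene *Cycs* had 334 and 226 against 269 and 320.

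The share of the library on listed genes of the mitochondrial genome overlapped between the groups. Levels of some of these genes are uncertain, as described below, so the share is not a measure of the whole mitochondrial genome. The listed genes held 2.15% and 2.31% of all normalized counts in wild-type samples against 2.29% and 2.11% in *Foxq1* cKO samples. The means were 2.23% ± 0.109 (SD, n = 2) and 2.199% ± 0.129 (SD, n = 2), and the exact two-sided permutation p was 0.667. The difference of -0.0298 percentage points became 0.0475 without wild-type 2 and 0.0612 without *Foxq1* cKO 2. Counting error was far smaller than the spread between samples. In wild-type 1, for example, the 95% Wilson interval ran from 2.15% to 2.16%, which covers counting error only. With the protein-coding genes alone the means were 1.545% ± 0.0799 (SD, n = 2) and 1.5496% ± 0.00578 (SD, n = 2). The rRNAs were more variable, at 0.663% and 0.704% in wild-type against 0.745% and 0.554% in *Foxq1* cKO samples.

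**Figure D2:**
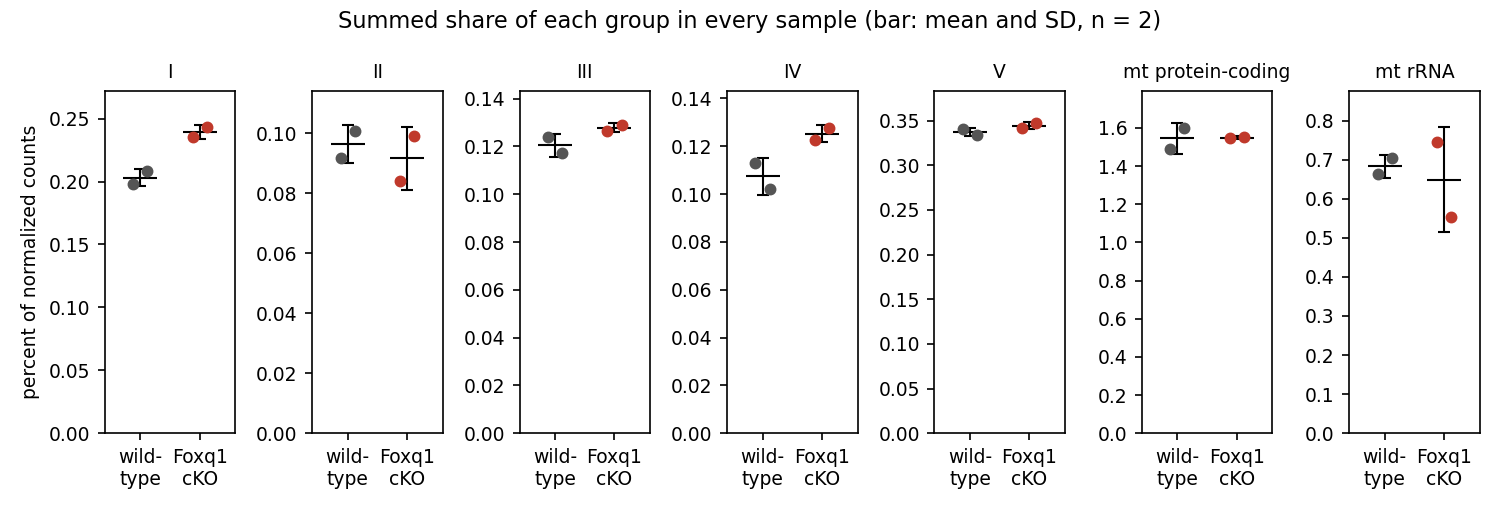
Percent of all normalized counts that fell on complexes I to V (nuclear genes), on protein-coding genes and on rRNAs of the mitochondrial genome, 1 point per sample, with the mean and SD of each group; every axis starts at 0 and has its own scale. *Foxq1* cKO points of complex I lie at 0.236% and 0.244%, above 0.198% and 0.208% in wild-type, while those of mitochondrial rRNA lie on either side of the wild-type points.

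Gene by gene, 8 of the 11 protein-coding genes of the mitochondrial genome overlapped between the groups and 3 lay downwards, so that 27.3% lay apart against 36.0% of all genes tested. *mt-Nd1*, for a subunit of complex I, had 62378 and 70222 normalized counts in wild-type against 68392 and 69718 in *Foxq1* cKO samples. *mt-Cytb*, the catalytic core of complex III, had 58716 and 67022 against 59848 and 70833. In both genes the groups overlapped. *mt-Co1*, which holds the catalytic centre of complex IV, had 114782 and 115528 against 106605 and 94441, and its *Foxq1* cKO values were both lower. Its log2 fold change was -0.20 (SE 0.0903, unadjusted p = 0.0694 in limma), and between -0.29 and -0.11 with 1 sample left out. The unadjusted p in limma was 0.0456 with a minimum mean of 50 and 0.0307 without *Foxq1* cKO 1, and the adjusted p lay between 0.549 and 1.0 over the alternatives.

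The other complex I genes of the mitochondrial genome showed small differences. *mt-Nd4* had 13049 and 13798 normalized counts in wild-type against 11996 and 12252 in *Foxq1* cKO samples, with a log2 fold change of -0.15 (SE 0.119). *mt-Nd2* had 7085 and 7181 against 7011 and 7044, which lay apart only narrowly and with the sign of the difference turned by quantile normalization. *mt-Nd5* had 8741 and 8053 against 8171 and 8397, and its log2 difference of -0.02 also turned sign under quantile normalization. *mt-Nd6*, the only protein-coding gene read from the other strand, had 3708 and 3129 against 3546 and 3039, with the same turn of sign. The rRNA *mt-Rnr1* had 2282 and 2347 against 3111 and 2448, and *mt-Rnr2* had 117624 and 123367 against 125191 and 93180. Only *mt-Rnr1* separated the groups, with *Foxq1* cKO 1 apart from the rest.

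Levels along the mitochondrial genome were very uneven even though its heavy-strand genes share precursors. Per kb, *mt-Co1* was at 69799 normalized counts on average over the samples and *mt-Co3*, from the same precursor, at 66.5. The ratio was 1063 and 1307 in wild-type against 1129 and 785 in *Foxq1* cKO samples. *mt-Co2* was at 389, *mt-Atp6* at 1295 and *mt-Atp8* at 64.1. In normalized counts, *mt-Co2* had 257 and 294 against 191 and 323. For *mt-Co3* the values were 54.8 and 44.9 against 47.9 and 61.0, and the sign of its difference turned under quantile normalization and when wild-type 2 or *Foxq1* cKO 2 was left out. *mt-Atp8* had 15.2 and 11.96 against 11.98 and 13.2. *mt-Atp6* had 497 and 572 normalized counts in wild-type against 468 and 1989 in *Foxq1* cKO samples, so *Foxq1* cKO 2 alone was high, and without it the log2 fold change of 0.85 became -0.19.

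Of the low genes, *mt-Co2*, *mt-Co3* and *mt-Atp6* have copies in the nuclear genome. For *mt-Atp8* none was found among annotated transcripts. A share of 100% of the 50-base words of *mt-Co2*, 99.9% of *mt-Co3* and 99.5% of *mt-Atp6* also occurred in annotated genes elsewhere. Their closest copies *Gm28661*, *Gm28437* and *Gm10925* lie side by side on chromosome 1 (GRCm38, 24613189 to 24615565, minus strand). *mt-Nd4* shared 62.2% and *mt-Co1* 51.1%, and *mt-Nd1*, *mt-Cytb*, *mt-Nd6* and *mt-Atp8* shared 0%. *mt-Atp8*, at 7766 to 7969 of the mitochondrial genome, lies between *mt-Co2* and *mt-Atp6* and overlaps the latter over 43 bp. Only annotated transcripts were searched for copies. On chromosome 1, *Gm10925* ends at 24614651 and *Gm28661* starts at 24614885. Whether the stretch between these copies holds one of *mt-Atp8* was not tested. The copies had reads too, with lower values than the genes they copy in each sample. *Gm28437* had 32.0, 35.9, 40.3 and 39.7 normalized counts, *Gm10925* 262, 396, 352 and 356, and *Gm28661* 95.2, 79.8, 105 and 150. How reads with several places in the genome were counted is not given in the sources used here. Levels of *mt-Co2*, *mt-Co3* and *mt-Atp6* are therefore uncertain. The same doubt holds for *mt-Nd4* and *mt-Co1*, with 62.2% and 51.1% shared, and for the ratio of *mt-Co1* to *mt-Co3*. The level of *mt-Atp8*, which shared 0% and overlaps *mt-Atp6*, is left uncertain as well. The part of the copies in these levels, and in the differences of *mt-Co1* and *mt-Nd4*, was not tested.

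The first 120 bases of *mt-Co3* (chrM:8607-9390, plus strand) and of its copy *Gm28437* (chr1:24613189-24613971, minus strand) are printed from the GRCm38 transcripts of GENCODE M21 to show how alike they are. Over the 783 bases that both have, 0 differed, so no base is in capitals.
mt-Co3: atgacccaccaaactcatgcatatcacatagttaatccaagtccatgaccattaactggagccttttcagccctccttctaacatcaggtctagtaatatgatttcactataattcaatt
Gm28437: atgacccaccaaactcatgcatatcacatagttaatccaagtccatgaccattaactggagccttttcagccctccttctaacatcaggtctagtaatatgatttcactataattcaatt

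**Figure D3:**
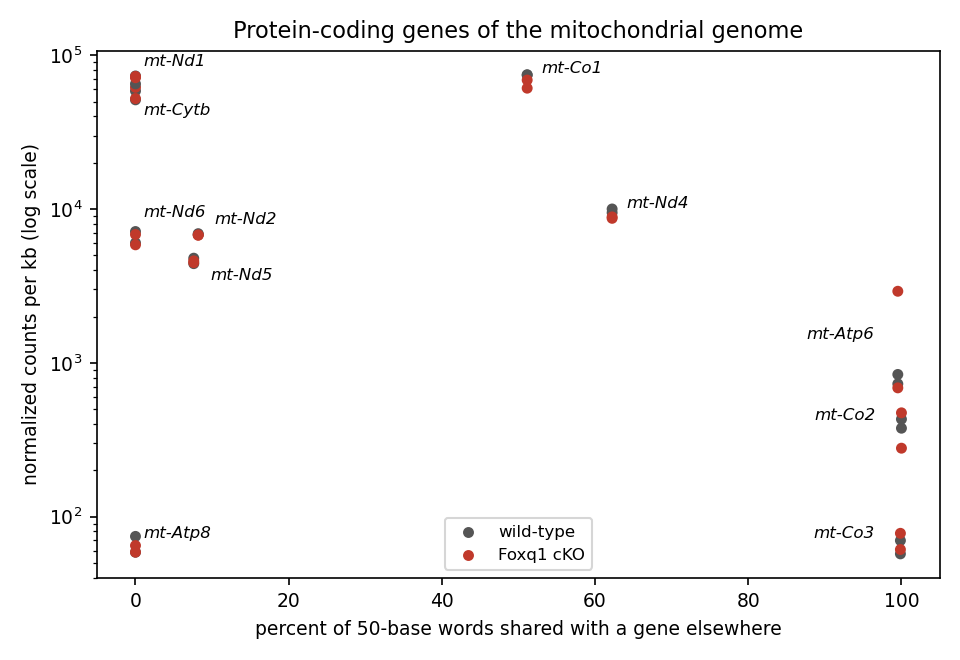
Level of each protein-coding mitochondrial gene in normalized counts per kb (log scale, 1 point per sample, wild-type grey and *Foxq1* cKO red) against the percent of its 50-base words that also occur in an annotated gene elsewhere. *mt-Co2*, *mt-Co3* and *mt-Atp6* lie near 100% with low levels, and *mt-Atp8* is low at 0%.

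A nuclear copy was also listed for a member whose samples varied widely within groups. *Ndufs5*, a subunit of complex I, had 424 and 54.8 normalized counts in wild-type against 66.4 and 313 in *Foxq1* cKO samples. Wild-type 1 and *Foxq1* cKO 2 were high and the other samples low, so the difference within each group was far larger than that between them. The processed copy *Ndufs5-ps* had the same order, with 677, 15.0, 25.0 and 424 normalized counts. Of the 50-base words of *Ndufs5* transcripts, 21.7% occurred in genes elsewhere, and of those of the copy 72.6% occurred in *Ndufs5*. Over 319 aligned bases 2 differed, an identity of 99.4%. The first 120 bases of the *Ndufs5* coding sequence (chr4:123712710-123718202, minus strand, GRCm38) and the matching bases of the copy (chr16:42955631-42955949, plus strand), which M21 names *BC002163*, hold both of these bases, shown in capitals.
Ndufs5: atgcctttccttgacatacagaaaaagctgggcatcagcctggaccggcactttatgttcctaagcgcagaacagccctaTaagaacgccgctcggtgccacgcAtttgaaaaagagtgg
BC002163: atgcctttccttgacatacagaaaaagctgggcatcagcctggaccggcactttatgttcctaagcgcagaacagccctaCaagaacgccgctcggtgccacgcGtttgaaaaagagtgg

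Across all 118 members, 24 shared more than 10% of their 50-base words with a gene elsewhere, among them 13 of 82 nuclear-encoded subunits. Leaving these members out, a choice made after the data were seen, gave a median log2 fold change of 0.25 for the nuclear-encoded subunits in place of 0.23. Levels per kb spanned a wide range inside each complex, although the subunits of a complex are mostly present once per complex. In complex I they ran from 12.01 for *Ndufb6* to 2284 for *Ndufc2*, with a median of 414. In complex V they ran from 31.1 for *Atp5j2* to 6990 for *Atp5b*, and in complex III from 168 for *Uqcrh* to 2991 for *Uqcrc1*. The 4 genes of complex II lay closer together, between 672 for *Sdhc* and 3631 for *Sdhd*. Exon length was taken over all annotated transcripts, which understates the level of genes with long unused exons.

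The 8 members with a mean under 10 normalized counts were 5 tRNA genes, *Ndufb6*, *Ndufb4c* and *Atp5l2-ps*. None had more than 19.3 normalized counts in any sample. *mt-Nd3*, *mt-Nd4l*, *Cox7a1*, *Cox6a2* and *Cox8c* were not analysed here.

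Genes that maintain and transcribe the mitochondrial genome gave 3 of 24 upwards and 4 downwards, 29.2% in either direction against 36.0% of all genes tested, with a median log2 fold change of 0.18. *Tfam*, which packages the mitochondrial genome, had 1267 and 591 normalized counts in wild-type against 984 and 662 in *Foxq1* cKO samples, and the polymerase gene *Polrmt* had 955 and 645 against 883 and 654. Groups overlapped in both. *Trmt10c*, a subunit of the enzyme that cuts tRNAs out of mitochondrial precursors, had 1059 and 1027 against 230 and 563. Its *Foxq1* cKO values were both far lower, with a log2 fold change of -1.53 (SE 0.504), unadjusted p = 0.0224 and adjusted p = 0.857 in limma. With 1 sample left out the fold change lay between -2.18 and -0.89. *Mgme1*, a nuclease of mitochondrial DNA, had 142 and 99.7 against 407 and 204.

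Nuclear regulators of respiratory genes had 2 of 17 upwards and 1 downwards, 17.6% in either direction against 36.0% of all genes tested, with a median of -0.10. *Hcfc1*, a cofactor in transcription, had 864 and 1501 normalized counts in wild-type against 1810 and 2422 in *Foxq1* cKO samples (log2 fold change 0.88, SE 0.344, unadjusted p = 0.0429, adjusted p = 0.857 in limma). Its log2 fold change lay between 0.48 and 1.28 with 1 sample left out. *Pprc1*, a coactivator related to PGC-1alpha, had 982 and 691 against 377 and 495. *Nrf1* had 445 and 1316 against 1167 and 1400, and *Gabpa* had 1731 and 794 against 1339 and 949. *Ppargc1a*, the gene of PGC-1alpha itself, had 0.843 and 74.8 against 69.7 and 194, so wild-type 1, with 1 read, decided its log2 fold change of 3.31 (SE 1.83), which was 0.63 without that sample.

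NRF1, a transcription factor known for its sites at respiratory genes, has a motif that is common at the members' promoters. RefSeq promoter windows (250 bases before to 50 after the gene start, GRCm38.p6) were found for 73 members, with 78 windows. The letters GCGCANGCG, on either strand, occurred in 22 of these windows, 28.2%, against 6.25% of all 32851 promoter windows. An ETS motif, CCGGAAGT, occurred in 6.41% against 3.89%. The letters GTTTC, which the study names for FOXQ1, occurred in 41.0% against 45.05%. The 21 tested members with the NRF1 letters had a median log2 fold change of 0.15 and the 51 without them 0.28. For the ETS letters the medians were 0.15 in 5 members with them and 0.28 in 67 without. For GTTTC they were 0.28 in 31 members with the letters and 0.23 in 41 without. These differences were not tested. A match is only a run of letters. Upstream stretches of *Ndufaf4* (chr4:24897934-24898013, plus strand) and *Atp5h* (chr11:115420017-115420096, minus strand) are given to show where such letters, in capitals, lie, 104 and 132 bases before the gene start.
Ndufaf4: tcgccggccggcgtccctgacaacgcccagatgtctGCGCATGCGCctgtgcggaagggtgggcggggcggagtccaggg
Atp5h: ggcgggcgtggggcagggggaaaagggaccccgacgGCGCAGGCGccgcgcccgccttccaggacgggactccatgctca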

How the data were processed

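RNA-seq of 2 wild-type and 2 *Foxq1* cKO samples was used. The deposited signal was made by the authors and holds reads per gene divided by 1 size factor per sample, with each gene repeated on many identical lines, which were collapsed to 12693 symbols. Whole multiples of the smallest value recovered reads for 100% of values in each sample, within a tolerance of 0.01. The submitters' processing notes name Bowtie2 2.2.3, TopHat2 2.0.12, HTSeq 0.6.0 and mm9 without a role. The annotation, the strand setting and the counting of reads with several places are not given in the sources used here. Groups were taken from the labels.

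Genes with a mean of at least 10 were tested with limma 3.58.1 (R 4.3.3; lmFit, then eBayes with a trend), after 1 was added to each value and log2 taken, with Benjamini-Hochberg adjustment over all genes, a test designed as 2 samples against 2. Fold changes on this scale understate those of low genes. DESeq2 1.42.0 and edgeR 4.0.16 on the recovered reads were alternatives and called 59 and 0 genes at an adjusted p under 0.05. Single values per sample were compared by exact permutation with scipy 1.17.1. The script was tested on simulated data. Other alternatives were pseudocounts of 0.1 and 5, no minimum or a minimum mean of 50, TMM scaling, quantile normalization, eBayes without a trend, a replicate block, removal of a trend with gene length, leaving out each sample, *Ndufa4* in complex I, protein-coding mitochondrial genes only, and leaving out the 10 most-read genes. Leaving out members with over 10% shared 50-base words, or those annotated as noncoding or pseudogenes, was chosen after seeing the data.

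Exon lengths, chromosomes and transcripts came from GENCODE M21 (GRCm38), and 12678 of 12693 symbols had a length. Promoters came from RefSeq (GRCm38.p6). Genes were named by rule: *Foxq1*, the extremes of log2 fold change in each group, all of complex II, isoforms, mitochondrial genes other than tRNAs, and in each related list the 2 smallest p and known regulators. Members and lists were chosen with earlier results of these data known. Depth was between 15827166 and 21466436 reads per sample.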

Additional observations from a re-analysis of the deposited data

How the results depend on the processing

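Of 57 named genes, 36 kept the sign of their log2 fold change in every setting, and 20 alternative settings were tried. Of 623 values of these genes in settings other than leaving out a sample, 6 reversed. Quantile normalization gave 0.0064 for *Cox7a2l*, -0.017 for *mt-Co3*, 0.089 for *mt-Nd2*, 0.079 for *mt-Nd5* and 0.022 for *mt-Nd6*. Removing a trend with gene length gave -0.017 for *Cox4i2*. Under quantile normalization the median log2 fold change was -0.086 in complex II, 0.32 in complex IV, 0.39 in *Ndufaf* and 0 in protein-coding mitochondrial genes, and 2 members lay downwards without overlap. With the length trend removed the last median was -0.065, and 11 members lay downwards. Shares of all genes lying downwards under quantile normalization or without the length trend are not given here. With *Ndufa4* in complex I the median of complex IV was 0.30. Members at an unadjusted p under 0.05 numbered 0 of 110 in limma, beside 651 of 12472 genes. With a minimum mean of 50 there were 1 of 100 members and 592 of 11403 genes. eBayes without a trend gave 3 of 110 members and 675 of 12472 genes, and DESeq2 gave 2 of 118 members and 824 of 12693 genes. DESeq2 called 59 genes at an adjusted p under 0.05, against 0 in limma and edgeR, *Foxq1* among them with a log2 fold change of -4.09. The mitochondrial share differed by 0.00431 percentage points with protein-coding genes only, against -0.0298. The cause was not tested in any of these.

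With 1 sample left out, a lone sample is assumed to vary like the other group. Lowest and highest values over the 4 such settings were 276 and 1569 genes and 0 and 3 members at an unadjusted p under 0.05, and 0 of either at an adjusted p under 0.05. Members without overlap numbered between 74 and 92, with 55 and 73 upwards and 15 and 22 downwards. Medians lay between 0.19 and 0.37 in complex I, -0.16 and -0.038 in complex II, 0.15 and 0.46 in complex III, 0.19 and 0.35 in complex IV, 0.023 and 0.20 in complex V, 0.17 and 0.61 in *Ndufaf*, -0.068 and 0.0011 in protein-coding mitochondrial genes and 0.16 and 0.30 in nuclear-encoded subunits. The difference in mitochondrial share lay between -0.121 and 0.0612. The sign of 19 named genes reversed, with log2 fold changes between -0.25 and 0.068 for *mt-Atp8*, -0.068 and 0.18 for *mt-Cytb*, -0.024 and 0.15 for *mt-Nd1*, -0.078 and 0.041 for *mt-Nd5*, -0.18 and 0.069 for *mt-Nd6*, -0.65 and 0.45 for *Tfam*, -0.33 and 0.24 for *Polrmt*, -0.042 and 1.52 for *Nrf1*, -0.62 and 0.51 for *Gabpa*, -1.33 and 0.89 for *Cox6b2*. For the others they lay between -0.013 and 0.091 for *Cox4i2*, -0.0016 and 0.21 for *Atp5g1*, -0.049 and 0.29 for *mt-Co3*, -0.18 and 0.37 for *Cycs*, -0.22 and 0.10 for *Atp5g2*, -0.53 and 0.23 for *mt-Co2*, -0.19 and 1.90 for *mt-Atp6*, -0.30 and 0.045 for *Sdhc* and -0.37 and 0.056 for *mt-Rnr2*. The cause was not tested.

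With the replicate number as a block, 693 genes and 0 members had an unadjusted p under 0.05 in limma, beside 651 and 0 without it. At an adjusted p under 0.05 there were 0 genes with or without the block. Deviations of same-numbered samples from their group means had a correlation of 0.0325 across genes. This value rests only on the difference between replicates in each group, so it cannot decide whether same-numbered samples were prepared together. The sources used here do not say whether they were.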

Other observations

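Outside the respiratory chain, *Rpl34*, a protein of the large cytosolic ribosomal subunit, had 527 and 835 normalized counts in wild-type against 1337 and 1690 in *Foxq1* cKO samples (log2 fold change 1.18, unadjusted p = 0.0142, adjusted p = 0.857 in limma). *Rpl35* had 1476 and 1604 against 2012 and 2240.1. In the mitochondrial ribosome, *Mrpl36* had 1081 and 766 against 1403 and 1318, and *Mrpl1* had 528 and 123 against 648 and 544.

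With 2 samples in each group, the smallest exact permutation p was 0.333. RNA levels say nothing of protein, assembled complexes or respiration, which were not analysed here. Whether a sample held 1 embryo or several is not given in the sources used here.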
